A study of Mus musculus with 24 samples.

Results

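The 31 genes described here encode soluble hydrolases, their activators and transport partners, and membrane proteins of the lysosome, out of 23337 genes listed in the files. They were chosen by name, with cathepsins and the proton pump left out. By role, 7 are glycosidases of glycoproteins and glycolipids or, for Gaa, glycogen (Hexa, Gla, Glb1, Neu1, Man2b1, Fuca1, Gaa). Another 6 are enzymes of glycosaminoglycan breakdown (Gusb, Ids, Idua, Naglu, Sgsh, Arsb). Sphingolipid and sulfatide breakdown has 5 genes (Psap, Asah1, Smpd1, Galc, Arsa). The others are 3 genes of lipid hydrolysis and cholesterol export (Lipa, Npc1, Npc2) and 7 membrane proteins (Lamp1, Lamp2, Scarb2, Cd63, Cd68, Mcoln1, Cln3). The last 3 are listed under protein processing (Tpp1, Ppt1 and Grn, the precursor of granulins). The study asked how APOBEC1, an enzyme that deaminates cytidine to uridine in RNA, affects translation. Ribosome footprints, the mRNA fragments that ribosomes shield from nuclease, were sequenced beside total RNA in macrophages of 6 Apobec1 -/- cultures (KO1 to KO6) and 6 wild-type cultures (WT1 to WT6), 1 library of each kind per culture. All were C57BL/6J marrow cells of mice aged 6 to 12 weeks, grown for 7 days with 20 ng/mL M-CSF. The labels place KO2 to KO4 and WT4 in batch 2, KO5, KO6, WT5 and WT6 in batch 3, and KO1 and WT1 to WT3 in batch 1. Whether cultures came from separate animals is not in the labels, so the spread between cultures may be partly technical.

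The lysosome breaks down material delivered by phagocytosis, endocytosis and autophagy, and macrophages depend on it to digest dead cells and microbes. Most of its soluble enzymes are glycoproteins made in the endoplasmic reticulum and tagged with mannose 6-phosphate, the signal that receptors use to carry them to the lysosome. Inherited loss of single lysosomal proteins causes storage diseases, such as Pompe disease for GAA and Niemann-Pick disease for SMPD1 or NPC1. Transcription factors of the MiT family (TFEB, TFE3, MITF) bind E-box sequences in the promoters of many lysosomal genes.

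All 31 genes had total RNA counts in all 12 cultures and passed the filter on low counts in every comparison. Counts in genes ran from 5077478 to 12059361 in total RNA libraries, and footprint libraries held 3714912 (WT4) down to 90773 (KO6) and 29561 (WT6). In the WT6 footprint library 8 of the 31 genes had at most 3 counts, and in KO6 3 did. Apobec1 footprints were 0 to 24.9 counts per 1000000 (CPM) in KO cultures and 61.0 to 105 CPM in WT cultures, while its total RNA was 605 to 1278 CPM in KO and 313 to 475 CPM in WT. The macrophage genes Emr1 (F4/80), Csf1r and Itgam (CD11b) were at 1130 to 7140, 952 to 4224 and 447 to 1985 CPM in total RNA. The batches differed in other ways that the results by batch below share. In batch 3, the Y-linked genes Ddx3y, Eif2s3y, Kdm5d and Uty had 0 or 1 count and Xist 172 to 386, against at least 155 counts of each Y-linked gene and 2 to 11 of Xist elsewhere, so batch 3 and the sex of the mice cannot be told apart.

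Promoters (250 bases before to 50 after the start, RefSeq, GRCm38.p6) were matched for 29 of the 31 genes. The E-box core CACGTG, which reads the same on both strands, was found in 9 of these 29 (31%), against 8.09% of 27025 gene symbols with a promoter. The longer TCACGTGA, which contains it, was in 3 (Cln3, Mcoln1 and Gla; 10.3% against 1.12%), and the same letters with a G before and a C after them in 1 (Cln3; 3.45% against 0.37%). A match says only that the letters are there. Shown are the promoter with most matches (Lamp1, 4 sites at -61, -45, -28 and -15 from the start), those of 2 genes whose footprints were highest in batch 3 (Mcoln1, at -71 and -45, and Naglu, at -73), and the one that holds this longest form (Cln3, at -149 and -121). They lie at chr8:13158911-13159210 and chr8:3500269-3500568 (plus strand), chr11:101069844-101070143 (plus strand) and chr7:126583187-126583486 (minus strand), and capitals mark CACGTG. Another Cln3 promoter, at chr7:126585768-126586067, holds no CACGTG and is not shown.
Lamp1: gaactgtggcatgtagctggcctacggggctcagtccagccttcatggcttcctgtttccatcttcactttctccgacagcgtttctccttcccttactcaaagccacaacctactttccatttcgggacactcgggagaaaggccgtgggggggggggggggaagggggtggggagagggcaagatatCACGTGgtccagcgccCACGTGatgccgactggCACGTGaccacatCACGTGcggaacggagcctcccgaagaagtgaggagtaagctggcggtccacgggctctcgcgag
Mcoln1: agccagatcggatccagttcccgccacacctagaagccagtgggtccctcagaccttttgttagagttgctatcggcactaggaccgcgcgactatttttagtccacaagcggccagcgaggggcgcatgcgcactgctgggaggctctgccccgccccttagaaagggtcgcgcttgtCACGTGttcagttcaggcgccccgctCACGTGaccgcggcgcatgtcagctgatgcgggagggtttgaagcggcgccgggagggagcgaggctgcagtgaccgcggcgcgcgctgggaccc
Naglu: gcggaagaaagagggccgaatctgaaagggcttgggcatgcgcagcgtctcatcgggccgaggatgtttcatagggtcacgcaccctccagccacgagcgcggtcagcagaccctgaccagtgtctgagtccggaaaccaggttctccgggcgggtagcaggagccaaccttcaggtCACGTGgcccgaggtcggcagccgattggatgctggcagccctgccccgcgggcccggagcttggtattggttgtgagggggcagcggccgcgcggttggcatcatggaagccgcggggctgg
Cln3: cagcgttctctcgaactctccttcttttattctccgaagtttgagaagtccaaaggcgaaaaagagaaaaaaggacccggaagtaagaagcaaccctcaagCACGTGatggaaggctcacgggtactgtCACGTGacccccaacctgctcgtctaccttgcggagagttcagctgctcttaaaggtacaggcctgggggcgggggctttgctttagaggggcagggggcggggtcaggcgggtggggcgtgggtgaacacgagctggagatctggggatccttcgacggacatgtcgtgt

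**Figure D1:**
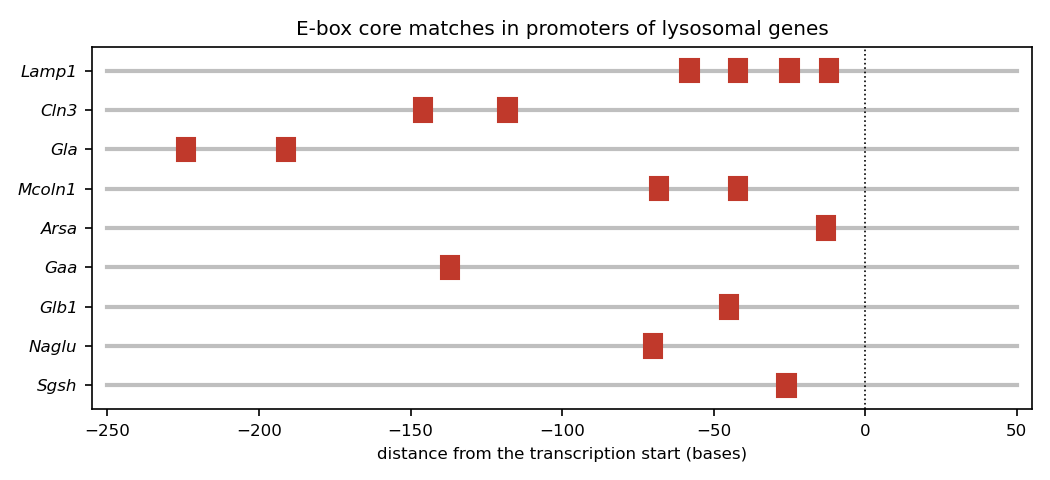
Positions of CACGTG (red) in the promoters of the 9 genes that hold it. The x axis is the distance in bases from the transcription start (dotted line), from 250 before to 50 after it. Lamp1 holds 4 sites, Cln3, Gla and Mcoln1 hold 2 each, and the other genes hold 1.

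None of the 31 genes passed the test for a difference between Apobec1 -/- and wild-type macrophages. In total RNA 0 of 31 passed the test (edgeR quasi-likelihood, batch in the model, Benjamini-Hochberg adjusted p under 0.05), where 0.0183% of 10942 genes did (0.00914% higher and 0.00914% lower). In footprints 0 of 31 passed, against 0.0832% of 7208 genes (all lower), and in the footprint to RNA ratio 0 of 31, against 0.0139% of 7203. At an unadjusted p under 0.05 the count was also 0 of 31 in all 3 comparisons, against 512, 614 and 181 of all genes, and DESeq2 called 0 in each. The median KO over WT log2 fold change of the 31 was 0.003 in total RNA, 0.005 in footprints and -0.005 in the ratio, where all genes had medians of -0.002, 0.015 and -0.001. The log2 fold change was within 0.25 of 0 for 30 of 31 genes in total RNA and for 28 of 31 in footprints and in the ratio. Standard errors had a median of 0.09 in total RNA, 0.14 in footprints and 0.16 in the ratio (log2). The authors' deposited table, which holds all 31, gave an adjusted p of 1 for each (DESeq2, batch corrected). The lowest unadjusted p-values there were 0.0467 for Cd68 and 0.0488 for Sgsh. Its column labels state neither the molecule nor the direction compared, so it cannot be matched to 1 of the 3 comparisons.

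**Figure D2:**
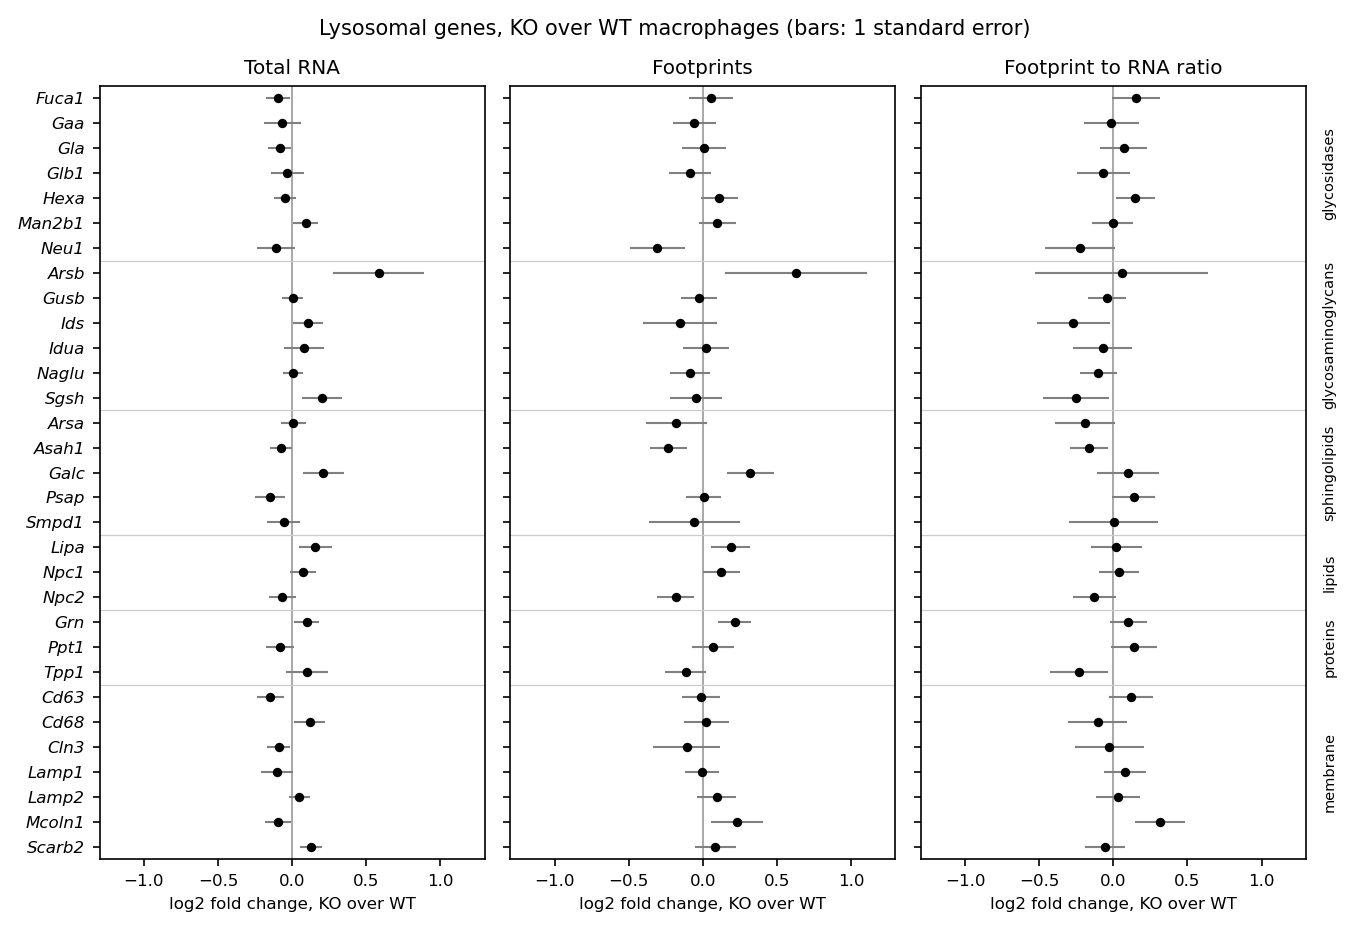
KO over WT log2 fold change of each lysosomal gene (points) with 1 standard error (bars), in total RNA, footprints and the footprint to RNA ratio, genes ordered by role. The widest bars are those of Arsb, and 0 of 31 genes passed the test in any panel.

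The gene nearest to a difference in total RNA was Arsb, arylsulfatase B, which removes sulfate from dermatan and chondroitin sulfate. It had 42.6 CPM at the lowest, 85.2 at the median and 129.8 at the highest in KO cultures, against 35.4, 42.5 and 82.9 CPM in WT cultures. The KO over WT log2 fold change was 0.58 ± 0.31 (SE; edgeR adjusted p = 0.859). Its values fell at 2 levels that cut across genotype and batch: KO3, KO4, KO5, KO6 and WT6 had 77.8 CPM or more, and the other 7 cultures 45.1 CPM or less. Footprints followed the RNA in KO3 (219 CPM), KO4 (140.2 CPM), KO5 (182 CPM) and KO6 (184 CPM). WT5 was apart, with 197 footprint CPM from 42 counts at 44.9 CPM of RNA, and WT6 had 2 footprint counts. Of the other genes with the smallest p in total RNA, Scarb2, the lysosomal membrane protein LIMP-2, had 186, 196 and 258 CPM in KO, against 153, 223 and 244 CPM in WT (0.13 ± 0.07), and without the batch term the direction turned (-0.045). Cd63, a tetraspanin of late endosomes, had 324.5, 407 and 657.5 CPM in KO, against 431, 491 and 621 CPM in WT (-0.15 ± 0.09; edgeR adjusted p = 0.859 for both). The genotypes overlapped for both genes.

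In footprints the smallest p-values belonged to Galc, Grn and Asah1. Galc, galactosylceramidase, had 168, 220 and 278.5 CPM (lowest, median and highest) in KO cultures, against 54.8, 203.5 and 296 CPM in WT cultures, where the lowest value was 2 counts in WT6. Its log2 fold change was 0.32 ± 0.16 (edgeR adjusted p = 0.584). Grn, the precursor of granulins, had 3472, 4838 and 5797 CPM in KO, against 2985, 4477 and 5024 CPM in WT, a log2 fold change of 0.22 ± 0.11 (edgeR adjusted p = 0.635). The KO minus WT difference of Grn was 0.23 within batch 1, 0.28 within batch 2 and 0.17 within batch 3. Asah1, acid ceramidase, had 363, 724 and 944 CPM in KO, against 383, 660 and 1104 CPM in WT (log2 fold change -0.23 ± 0.12, edgeR adjusted p = 0.648). The ranges of the genotypes overlapped for all 3 genes.

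In the ratio the smallest p belonged to Mcoln1, the calcium channel TRPML1. Its footprint to RNA ratio was 1.32, 1.89 and 3.37 (lowest, median and highest) in KO cultures, against 1.09, 1.68 and 2.33 in WT cultures (log2 fold change 0.32 ± 0.17, edgeR adjusted p = 1). The difference was 0.33, 0.43 and 0.31 within batches 1, 2 and 3. Asah1 came next, with ratios of 0.829, 1.55 and 2.06 in KO and 0.939, 1.42 and 2.15 in WT (-0.17 ± 0.13, and 0.035 without the batch term), then Tpp1, tripeptidyl peptidase 1 (-0.23 ± 0.20), both with an edgeR adjusted p of 1. With only the 4 cultures whose footprint libraries held over 1000000 counts (KO2, KO4, WT4 and WT1), 14.5% of all genes and 6 of 31 passed in footprints: Galc (0.56), Lipa (0.62) and Cd68 (0.48) higher and Neu1 (-0.73), Glb1 (-0.56) and Gaa (-0.44) lower (edgeR adjusted p 0.000443 to 0.04). WT1 is then alone in its batch, so this compares KO2 and KO4 with WT4 alone.

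The footprint to RNA ratio, the footprint CPM over the total RNA CPM of the same culture, was above 1 for most of these genes. Over all 12 cultures, with the culture as a block, 29 of 31 passed, where 74.3% of genes did: 23 of 31 (74.2%) had higher footprints than total RNA and 6 (19.4%) lower, against 36.4% of 7203 genes higher and 37.9% lower. The median log2 ratio was 0.49 for the 31 and -0.007 for all genes. Under the RLE scaling 20 were higher and 6 lower, with Lamp1 (0.045, edgeR adjusted p = 0.342), Lipa (0.07, adjusted p = 0.166) and Sgsh (0.22, adjusted p = 0.0695) no longer called. With one culture left out in turn, Lamp1 was called in 2 of 12 fits, Lipa in 5 and Sgsh in 8. The file names mark footprint counts as those of coding sequence, and the region counted for total RNA is not given in the sources used here, which limits ratios compared between genes.

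By role, the median log2 ratio was highest in protein processing, then in the membrane proteins (0.83) and, close to these, the glycosaminoglycan enzymes (0.74). All 3 genes listed under protein processing were higher in footprints, with a median log2 ratio of 1.43, which is the value of Grn. They were Tpp1, a serine protease (1.49 ± 0.07), Grn (1.43 ± 0.05) and Ppt1, which removes palmitate from proteins (0.49 ± 0.07). Of the 7 membrane proteins 6 were higher, Lamp1 with the limits given above, and Cln3 was not called. This did not extend to 13 other lysosomal membrane proteins tested, where 5 were higher and 7 lower (median -0.21). Of 17 other hydrolases and activators tested, 11 were higher and 4 lower (median 0.36). Among all genes 36.4% were higher and 37.9% lower. Among the glycosaminoglycan enzymes 5 of 6 were higher and Ids was lower. Of the 5 sphingolipid genes 4 were higher and Smpd1 was lower, of the 3 lipid genes Lipa (acid lipase) and Npc1 (cholesterol export) were higher and Npc2, its soluble partner, lower (-0.48 ± 0.05). The 7 glycosidases were divided, with Gaa (0.97), Man2b1 (0.82) and Glb1 (0.76) higher and Fuca1 (-0.63), Neu1 (-0.40) and Hexa (-0.22) lower. Without cultures under 1000000 footprint counts Hexa was at -0.05 and was not called (edgeR adjusted p = 0.518).

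Cd68, macrosialin, a heavily glycosylated protein of macrophage endosomes and lysosomes, had the highest ratio. It was 2.57, 4.51 and 6.06 (lowest, median and highest) in KO cultures and 2.87, 5.96 and 8.16 in WT cultures, a fitted log2 ratio of 2.26 ± 0.05 over all cultures (edgeR adjusted p = 2.66e-44). Cd63 followed at 2.60, 3.10 and 3.69 in KO and 2.21, 2.97 and 3.96 in WT (1.62 ± 0.05), then Tpp1 at 1.74, 2.08 and 3.91 in KO and 1.91, 2.88 and 6.19 in WT. All values of these 3 genes stood above 1. The lowest ratio belonged to Ids, iduronate 2-sulfatase, the X-linked enzyme missing in Hunter syndrome. It was 0.119, 0.152 and 0.223 in KO cultures and 0, 0.173 and 0.233 in WT cultures, where the 0 is WT6, at a floor of 3 counts (82.2 CPM). The fitted log2 ratio of Ids was -2.54 ± 0.11, at a total RNA level of 101 to 160.5 CPM and footprint counts of 2 to 111 in the other libraries. Smpd1, acid sphingomyelinase, followed at -1.28 ± 0.15, with ratios of 0.203, 0.384 and 0.534 in KO and 0, 0.402 and 1.03 in WT and footprint counts of 0 to 61, and Fuca1, alpha-L-fucosidase, at -0.63 ± 0.07 with ratios of 0.562 to 0.722 in all 12 cultures.

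**Figure D3:**
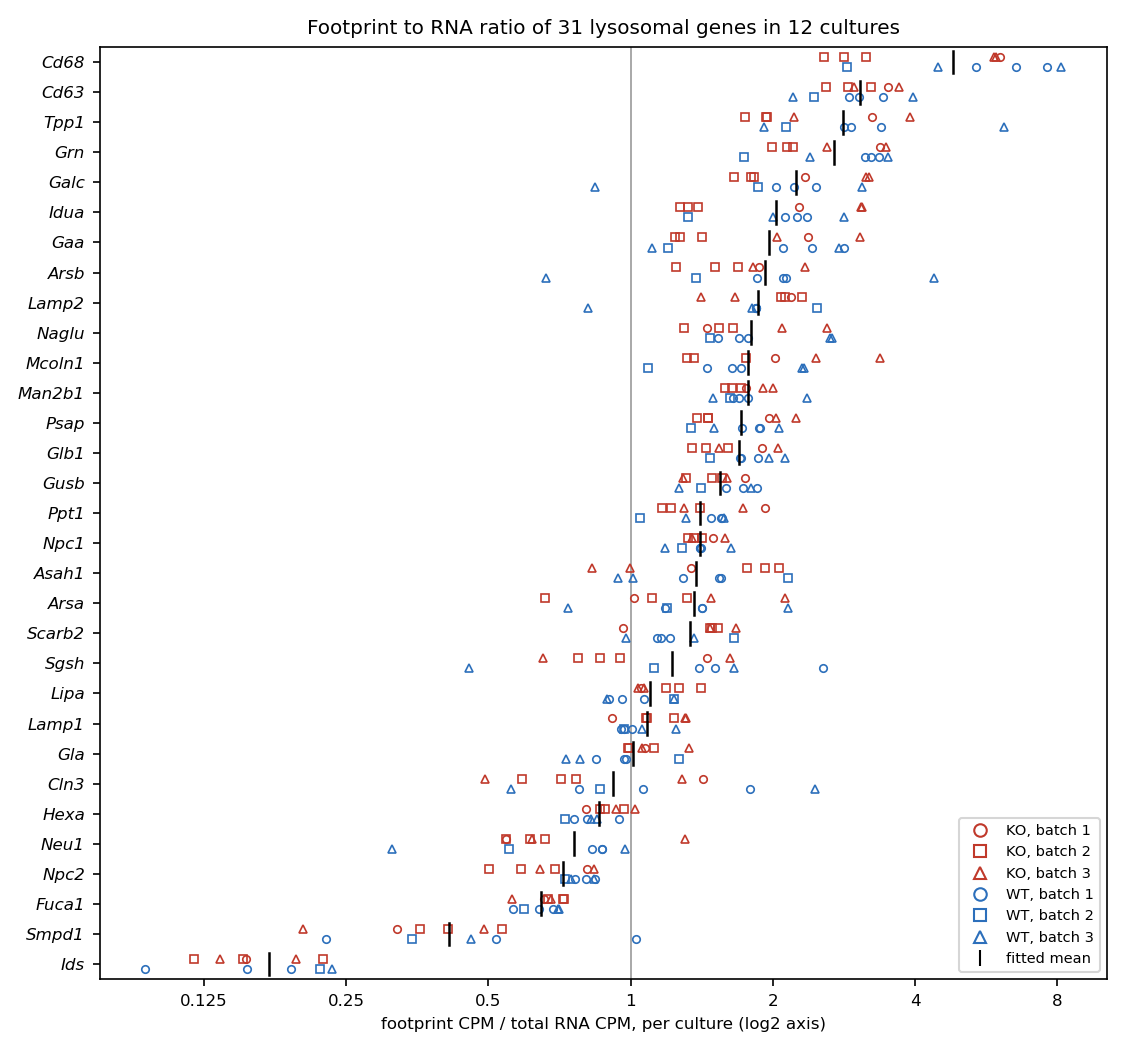
Footprint CPM over total RNA CPM (log2 axis) for each gene in each culture, KO in red above WT in blue, with a symbol for each batch and a bar for the fitted mean. Genes run from Cd68 (fitted log2 ratio 2.26) at the top to Ids (-2.54) at the bottom, and the WT6 values of Ids and Smpd1, which are 0, are not drawn.

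Psap, prosaposin, the precursor of the saposins that present sphingolipids to their hydrolases, gave a large share of all reads. It held 0.677% to 1.18% of total RNA counts and 1.27% to 2.01% of footprint counts, against 2.11% to 2.57% and 3.40% to 4.33% for all 31 genes together. Without Psap the other 30 genes held 1.44% to 1.5% of total RNA counts in KO cultures and 1.38% to 1.48% in WT cultures. Psap had 6361, 9401 and 10960 CPM of total RNA in KO and 7307, 10450 and 12910 in WT, and its footprint to RNA log2 ratio was 0.78 ± 0.04.

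The 31 genes differed between culture batches, in total RNA about as often as other genes did or somewhat more. Batch 3 over batch 1 gave 19 of 31 (61.3%; 6 higher, 13 lower), where 45.3% of all genes tested were called, 23.0% higher and 22.3% lower. Batch 3 over batch 2 gave 20 (64.5%; 7 higher, 13 lower), where 49.2% of genes were called, 24.7% higher and 24.5% lower. Batch 2 over batch 1 gave 6 (19.4%; 4 higher, 2 lower), where 23.5% of genes were called, 12.7% higher and 10.8% lower. Without WT4 that count was 4. Fits without 1 culture called 1345 to 3041 of all genes in batch 2 over batch 1, against 2572 with all cultures. The comparisons share cultures, so they are not independent of each other. Batch 2 held 3 KO cultures and 1 WT culture and batch 1 the opposite, and the model carries genotype beside batch. With WT cultures only, batch 3 over batch 2 gave 13, where 27.4% of genes were called. In that alternative, here and below, batch 2 is WT4 alone, which is assumed to vary like the WT cultures of the other batches.

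Marker genes of other cells moved with the batches, and their part in these results was not tested. The summed total RNA level of 12 neutrophil and precursor markers, all detected, was 442 to 591 CPM in batch 3, 153 to 591 in batch 2 (591 in WT4) and 57.6 to 67.0 in batch 1. The 2 mast cell markers summed to 39.9 to 68.8 CPM in batch 3, 1.66 to 3.65 in batch 2 and 6.69 to 12.7 in batch 1. The 4 monocyte markers were at 113 to 160 CPM in batch 3, 185 to 503 in batch 2 and 93.0 to 143 in batch 1, and the 4 dendritic markers at 13.2 to 15.6, 10.9 to 76.9 and 94.8 to 152 CPM. The 7 macrophage markers found, of 8 symbols listed, summed to 15020 to 24880 CPM in batch 3, 26930 to 48480 in batch 2 and 21500 to 28740 in batch 1. Adgre1 and Emr1 on that list are names of the same gene. Lyz2 alone gave 11750 to 34780 CPM over the 12 cultures, so these sums mostly follow Lyz2. The 4 osteoclast markers were at 31.1 to 55.6 CPM in batch 3, 19.7 to 34.7 in batch 2 and 33.0 to 66.4 in batch 1. Lymphocyte and stromal sums did not pass 8.28 CPM, and the erythroid Hba-a1 was at 0 in all cultures. Fewer cells of a type and less RNA per cell cannot be told apart in these bulk libraries.

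**Figure D4:**
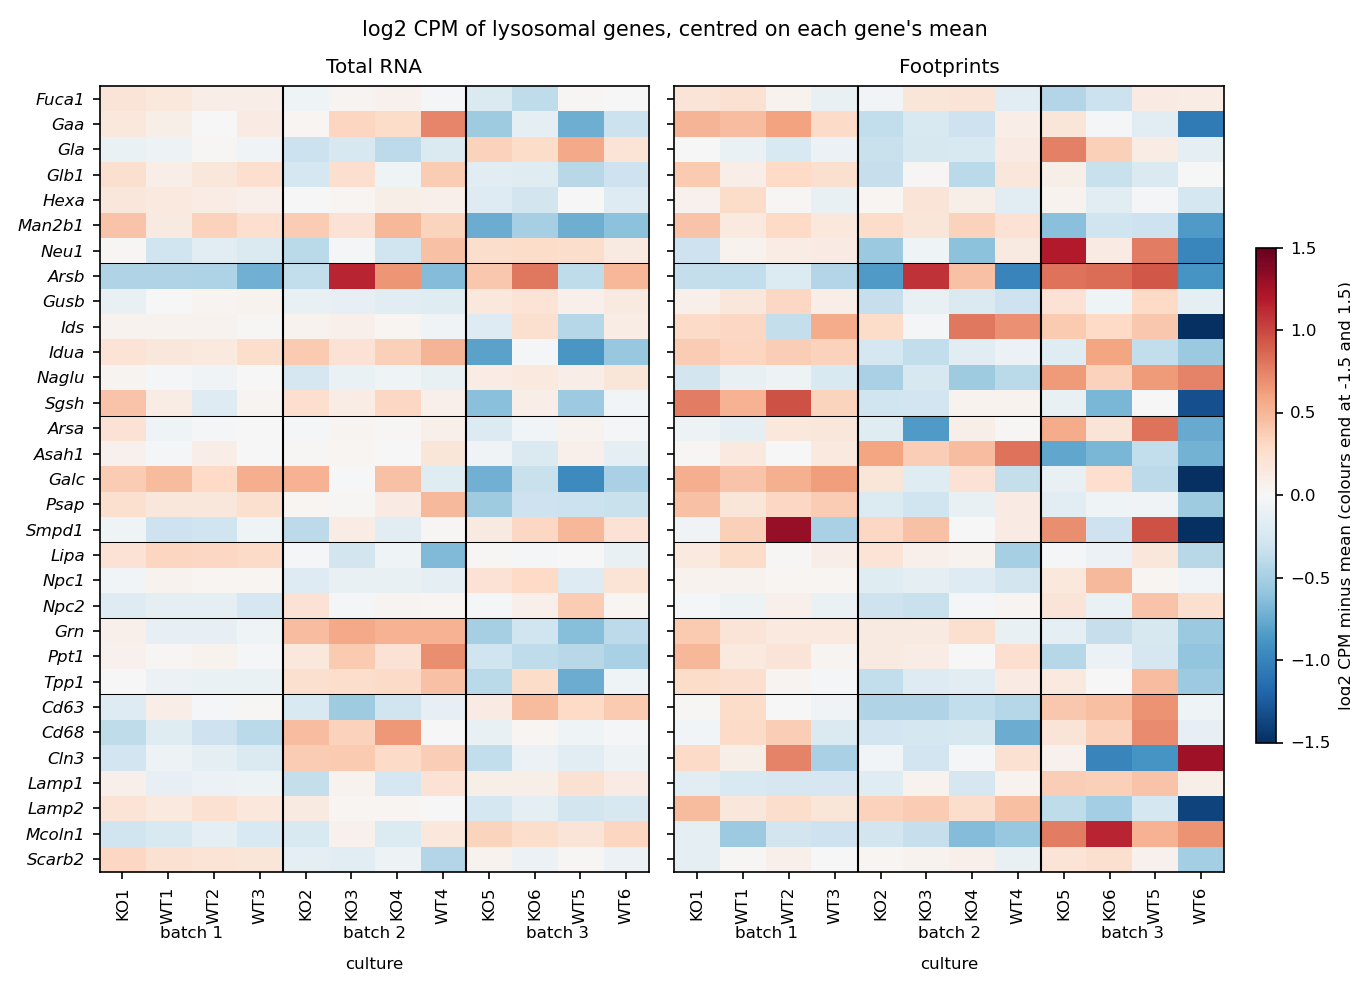
log2 CPM of each gene minus its mean over the 12 cultures, in total RNA and footprints, with cultures grouped by batch (KO before WT within a batch) and genes by role. Man2b1 is low and Gla high in the total RNA of all 4 batch 3 cultures, and the WT6 column of footprints rests on 1036 counts in the 31 genes.

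Total RNA of several sugar-cleaving and sphingolipid enzymes was lower in batch 3. Man2b1, lysosomal alpha-mannosidase, had 438, 519, 439.8 and 476 CPM in KO5, KO6, WT5 and WT6, against 952, 852, 1029 and 922 CPM in batch 2 (KO2, KO3, KO4, WT4) and 987, 804, 932 and 869 CPM in batch 1 (KO1, WT1, WT2, WT3). The groups did not overlap, and the log2 fold change was -0.96 ± 0.10 over batch 1 and -0.98 ± 0.10 over batch 2 (edgeR adjusted p = 6.86e-06 and 5.89e-06). Galc had 55.3, 72.5, 47.2 and 65.1 CPM in batch 3, against 131, 91.8, 124 and 80.2 CPM in batch 2 and 119, 127, 112 and 134 CPM in batch 1. Its log2 fold change over batch 1 was -1.10 ± 0.16 (edgeR adjusted p = 0.000103). Idua, alpha-L-iduronidase, had 34.7, 59.9, 33.1 and 41.0 CPM in batch 3 and 67.0 to 86.8 CPM in the other 8 cultures (-0.74 ± 0.16 over batch 1, edgeR adjusted p = 0.00189). Counts of Idua may hold reads of Slc26a1 and Dgkq, which overlap it, since use of strand in counting is not given in the sources used here. All 7 glycosidases were called in batch 3 over batch 1, with Gaa, Glb1, Hexa and Fuca1 lower beside Man2b1, and Gla and Neu1 higher. With one culture left out in turn, Neu1 was called in 6 of 12 fits, Fuca1 in 7, Gaa and Hexa in 10 and Glb1 in 11. With WT cultures only, Fuca1 (-0.12) and Hexa (-0.22) were not called. Psap was lower too, by a log2 fold change of -0.55 ± 0.12 over batch 1 and -0.58 ± 0.12 over batch 2.

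Other genes were higher in batch 3. Gla, the X-linked alpha-galactosidase A, had 270.0, 257, 315 and 246 CPM in batch 3 (KO5, KO6, WT5, WT6), against 170.0, 181, 162.5 and 183 CPM in batch 2 and 199.5, 202, 215 and 206 CPM in batch 1. All 4 batch 3 values lay above the other 8 (log2 fold change 0.62 ± 0.09 over batch 2, edgeR adjusted p = 9.28e-05). Mcoln1 had 47.3, 45.0, 42.8 and 47.0 CPM in batch 3, against 32, 39.2, 32.5 and 41.8 CPM in batch 2 and 30.3, 31.8, 34.2 and 31.8 CPM in batch 1 (0.54 ± 0.10 over batch 1, edgeR adjusted p = 0.00071). Over batch 2 it was 0.31 ± 0.10, and 0.11 with WT cultures only (edgeR adjusted p = 0.628). Smpd1 had 47.6, 53.5, 61.4 and 50.2 CPM in batch 3, all above the 32.8 to 46.9 CPM of batch 2 and the 35.0 to 41.5 CPM of batch 1 (0.49 ± 0.13 over batch 1 and 0.38 ± 0.13 over batch 2). With WT cultures only, Smpd1 was not called over batch 2 (0.345, edgeR adjusted p = 0.208). Neu1, a sialidase, had 193, 193.5, 193 and 175 CPM in batch 3, against 130.5 to 162 CPM in batch 1 (0.42 ± 0.15, edgeR adjusted p = 0.0333), and batch 2 ran from 121 to 217 CPM. Cd63 had 515, 657.5, 578 and 621 CPM in batch 3, above 403, 324.5, 382 and 431 CPM in batch 2 (0.59 ± 0.10) and 411 to 505 CPM in batch 1 (0.39 ± 0.10). Its counts may include reads shared with the pseudogene Cd63-ps. Npc2 was higher than in batch 1 by 0.33 ± 0.10.

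Batch 2 stood out by RNA of Grn and Cln3, and its KO cultures by that of Cd68. Grn had 2261, 2424, 2345 and 2350 CPM in batch 2 (KO2, KO3, KO4, WT4), above all of the 1716, 1500, 1510 and 1560 CPM of batch 1 (KO1, WT1, WT2, WT3), with a log2 fold change of 0.53 ± 0.10 (edgeR adjusted p = 0.00324). It was lowest in batch 3, at 1156, 1335, 1054 and 1243 CPM (-0.95 ± 0.10 over batch 2). Cd68 had 421, 387.5, 478.5 and 303 CPM in batch 2, against 233.5, 270.0, 246 and 231.5 CPM in batch 1 (0.63 ± 0.13, edgeR adjusted p = 0.0047). The WT4 value lay below the 3 KO values and within the batch 3 values of 282, 310, 292 and 299 CPM (KO5, KO6, WT5, WT6). With WT cultures only, the log2 fold change of Cd68 was 0.28 (edgeR adjusted p = 0.156). Cln3, a membrane protein lost in juvenile Batten disease, had 61.0, 61.6, 57.4 and 61.0 CPM in batch 2, above 38.4, 44.5, 42.3 and 40.3 CPM in batch 1 (0.59 ± 0.10, edgeR adjusted p = 0.00123). Its counts may hold reads of Apobr, which overlaps it. Ppt1, which overlaps Cap1, rose by 0.39 ± 0.11 in batch 2. Without WT4, which had 238 CPM against 164 to 192 in the KO cultures of its batch, its log2 fold change was 0.17. Lipa was lower, at 2153, 1790, 2073 and 1368 CPM in batch 2 against 2520 to 2696 in batch 1 (-0.61 ± 0.14), and without WT4 it was -0.39 with an edgeR adjusted p of 0.0563. Scarb2 was lower too, at 188.5, 186, 198 and 153 CPM against 235 to 258 CPM (-0.50 ± 0.09).

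Footprints of the 31 genes were called at 12 of 31 (38.7%; 4 higher, 8 lower) in batch 3 over batch 1, where 20.8% of 7208 genes were called, 9.54% higher and 11.2% lower. Batch 3 over batch 2 gave 12 of 31 (8 higher, 4 lower), where 22.5% were called, 10.9% higher and 11.7% lower. Batch 2 over batch 1 gave 7 (22.6%; 1 higher, 6 lower), where 15.4% were called, 8% higher and 7.37% lower. The batch 3 footprint libraries were the shallowest, with 29561 to 223504 counts. Without KO6 and WT6, an alternative chosen after seeing the data, batch 3 gave 11 over batch 1 and 11 over batch 2. The share of all genes called in that fit is not given here, so these counts do not show how stable the calls are. Without KO5, batch 3 over batch 2 gave 7, and without KO1, batch 2 over batch 1 gave 4. The number of all genes called moved too. Fits without 1 culture called 974 to 1760 genes in batch 3 over batch 2, against 1623 with all cultures. In batch 2 over batch 1 they called 597 to 1193, against 1108.

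Mcoln1, Naglu and Lamp1, whose promoters are shown above, were among the genes with higher footprints in batch 3. Mcoln1 had 116.5, 152, 98.6 and 109.5 footprint CPM in KO5, KO6, WT5 and WT6 (25, 14, 21 and 4 counts), against 56.0, 53.4, 42.8 and 45.3 CPM in batch 2 (KO2, KO3, KO4, WT4) and 61.3, 46.2, 56.0 and 54.5 CPM in batch 1 (KO1, WT1, WT2, WT3). All 4 batch 3 values stood above the other 8, with a log2 fold change of 1.28 ± 0.23 over batch 2 and 1.05 ± 0.25 over batch 1 (edgeR adjusted p = 0.000104 and 0.00235). Naglu, alpha-N-acetylglucosaminidase of heparan sulfate breakdown, had 331, 271, 333 and 356 CPM in batch 3, against 151, 180.4, 146 and 160.0 CPM in batch 2 and 176, 197, 201 and 181 CPM in batch 1. Its log2 fold change was 1.00 ± 0.16 over batch 2 and 0.80 ± 0.17 over batch 1 (edgeR adjusted p = 2.83e-05 and 0.000856). Lamp1, an abundant glycoprotein of the lysosomal membrane, had 3411, 3374, 3567 and 2793 CPM in batch 3, against 2341, 2737, 2206 and 2740 CPM in batch 2 and 2346, 2253, 2208 and 2205 CPM in batch 1 (0.56 ± 0.14 over batch 1, edgeR adjusted p = 0.00293; given by culture because its promoter is shown). Total RNA of Lamp1 was not called in any batch comparison. Neu1 was called as well (0.84 ± 0.25 over batch 1 and 0.97 ± 0.24 over batch 2). Without KO5, which had 252 CPM against 119, 188 and 54.8 in KO6, WT5 and WT6, its log2 fold change was 0.44 (edgeR adjusted p = 0.297) over batch 1 and 0.48 (edgeR adjusted p = 0.269) over batch 2. CACGTG was present in 3 of the 4 genes with higher footprints in batch 3 over batch 1 and in 1 of the 7 lower ones with a promoter, a count made after the values were seen. In total RNA it was in 2 of 6 higher and 2 of 13 lower genes. Over batch 2 it was in 4 of 7 higher and 0 of 3 lower genes with a promoter in footprints, and in 3 of 6 and 3 of 13 in total RNA. Those lower in total RNA include Cln3, whose promoter is also shown. The share with CACGTG among all called genes was not counted, and a link of the motif with batch was not tested.

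Asah1 and Lamp2 footprints moved the other way. Asah1 had 363, 391, 483 and 383 CPM in batch 3 (KO5, KO6, WT5, WT6), 944, 813, 866 and 1104 CPM in batch 2 and 635, 696.5, 626 and 693 CPM in batch 1. The 3 batches did not overlap, and batch 3 was lower than batch 2 by a log2 fold change of -1.23 ± 0.15 and than batch 1 by -0.63 ± 0.15 (edgeR adjusted p = 2.75e-07 and 0.00314), while batch 2 was higher than batch 1 by 0.60 ± 0.14 (adjusted p = 0.00333). Its total RNA lay between 391 and 512 CPM in all 12 cultures and was not called in any batch comparison. Asah1 overlaps Frg1, whose reads its counts may hold. Lamp2, the X-linked partner of Lamp1 that also serves chaperone-mediated autophagy, had 1095, 1009, 1187 and 548 footprint CPM in batch 3, against 1817, 1874, 1715 and 1957 CPM in batch 2 and 1994, 1617, 1720 and 1630 CPM in batch 1. Its log2 fold change was -0.85 ± 0.16 over batch 2 and -0.81 ± 0.16 over batch 1 (edgeR adjusted p = 0.00013 and 0.000316), beside -0.27 ± 0.08 and -0.43 ± 0.08 in total RNA. Man2b1 was lower in footprints as it was in RNA, at 834, 1042, 1037 and 712 CPM in batch 3 against 1461 to 1634 CPM in batch 2 and 1425 to 1732 CPM in batch 1 (-0.76 ± 0.15 over batch 1). Galc had 177, 228, 145.5 and 54.8 footprint CPM in batch 3, against 278.5, 258, 277 and 296 CPM in batch 1 (-0.87 ± 0.21). Sgsh, a heparan sulfate sulfamidase, had 65.2, 43.4, 70.4 and 27.4 CPM (14, 4, 15 and 1 counts) in batch 3, against 121, 102, 138 and 89.0 CPM in batch 1 (-0.84 ± 0.28), and without KO6 and WT6 it was not called (-0.69).

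In the footprints of batch 2 over batch 1, Galc had 217, 168, 222.5 and 149 CPM in batch 2, below all 4 values of batch 1 given above (-0.72 ± 0.17, edgeR adjusted p = 0.00409). Gaa had 179, 197.5, 186 and 246.5 CPM in batch 2, against 328, 319, 353 and 283 CPM in batch 1 (-0.63 ± 0.16), and Sgsh had 57.2, 57.6, 73.1 and 73.2 CPM in batch 2 (-0.71 ± 0.19). The batches did not overlap for these 3 genes. Idua (-0.58 ± 0.17), Cd63 (-0.49 ± 0.15) and Psap (-0.44 ± 0.14) were lower. With WT cultures only, Sgsh (-0.50) and Gaa (-0.35) were not called, nor without KO1 (-0.52 and -0.54). Idua and Psap were not called without KO1 either, nor with WT cultures only (-0.43 for Idua and -0.16 for Psap). Psap was at -0.04 without cultures under 1000000 footprint counts. Galc was not called without WT4 (edgeR adjusted p = 0.0602), nor Cd63 without WT1 or WT4.

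**Figure D5:**
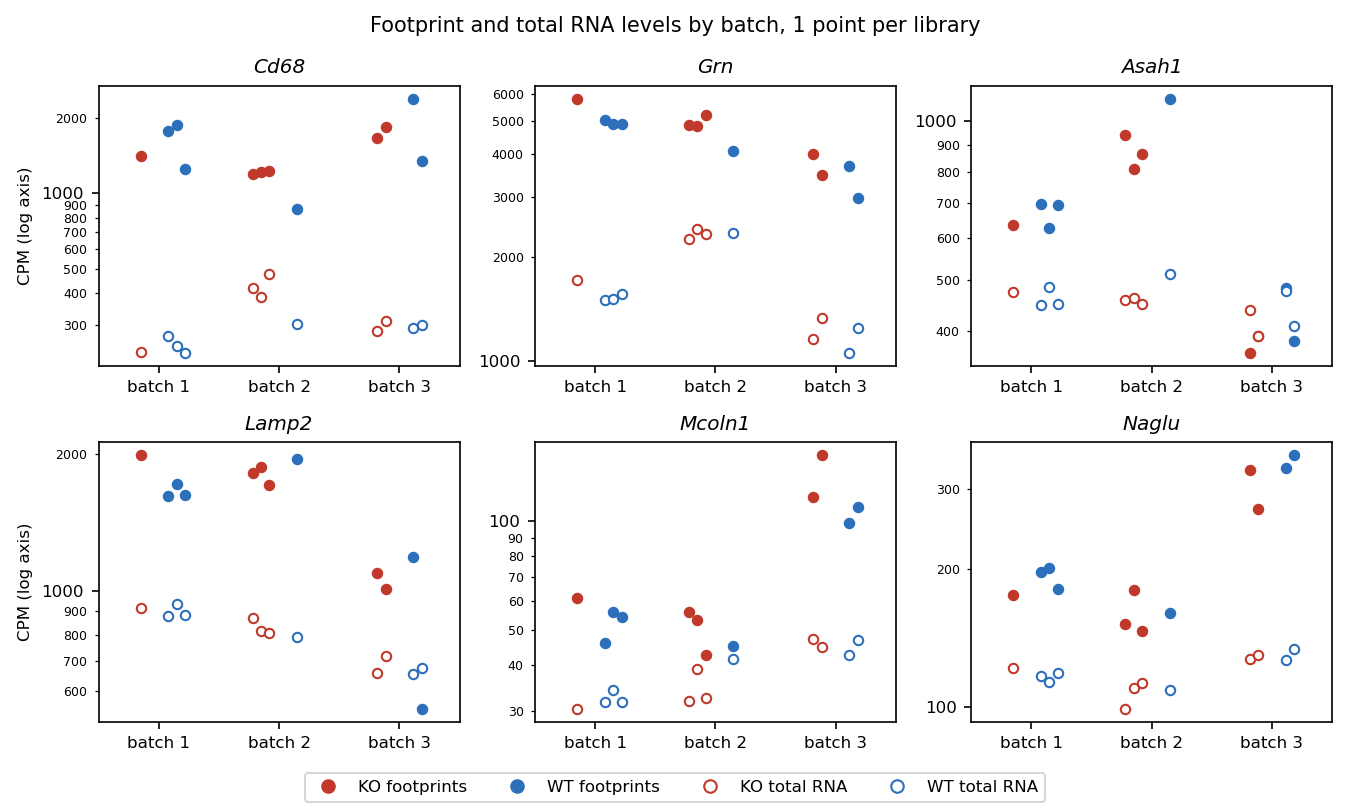
CPM (log axis) of 6 genes by batch, 1 point per library, with footprints filled and total RNA open, KO in red left of WT in blue. Grn shows RNA that is highest in batch 2 while its footprints are not. Cd68 RNA is highest in KO2, KO3 and KO4, and its WT4 value lies within those of batch 3. Asah1 footprints are at most 483 CPM in batch 3 and at least 813 CPM in batch 2, and Mcoln1 and Naglu footprints are highest in batch 3.

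The footprint to RNA ratio of the 31 genes was lower in batch 2 on balance. In batch 2 over batch 1 the median log2 fold change of the ratio was -0.27 for the 31 and -0.03 for all genes, and 7 of 31 were called (22.6%; 2 higher, 5 lower), where 16.7% of 7203 genes were, 8.26% higher and 8.41% lower. With the culture as a block, which pairs the libraries of a culture, 14 were called, 3 higher and 11 lower, where 31.7% of all genes were. In the fit with no such block, the count was 3 without KO1 or without WT4. Fits of this kind without 1 culture called 412 to 1477 of all genes, against 1201 with all cultures. Batch 3 over batch 2 gave 9 (29.0%; 7 higher, 2 lower), where 9.97% were called, 4.46% higher and 5.51% lower, with a median of 0.24 against -0.04. Without KO5 that count was 4, where fits without 1 culture called 298 to 762 of all genes (718 with all cultures). Under the culture block it was 13, where 17.5% of all genes were called, with Psap, Arsb, Galc and Neu1 added. Batch 3 over batch 1 gave 1, Naglu (0.61 ± 0.16, edgeR adjusted p = 0.0452), where 1.14% were called (0.625% higher and 0.514% lower). It was not called without KO1, KO5, KO6, WT2, WT3 or WT5. Under the culture block it gave 2, with Asah1 added (-0.62, edgeR adjusted p = 0.00511), where 2.68% of all genes were called.

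Cd68 had the lowest ratio in batch 2 relative to both other batches. The ratio was 2.83, 3.14, 2.57 and 2.87 in KO2, KO3, KO4 and WT4, against 6.06, 6.53, 7.62 and 5.39 in batch 1 (KO1, WT1, WT2, WT3) and 5.88, 5.94, 8.16 and 4.48 in batch 3 (KO5, KO6, WT5, WT6). All batch 2 values were below the other 8, and the log2 fold change over batch 1 was -1.13 ± 0.24 (edgeR adjusted p = 0.00186). Grn had 2.14, 1.99, 2.21 and 1.73 in batch 2, against 3.38, 3.35, 3.23 and 3.13 in batch 1 (-0.76 ± 0.15, edgeR adjusted p = 0.000951). Gaa, acid alpha-glucosidase, which digests glycogen, had 1.42, 1.27, 1.24 and 1.2 in batch 2, against 2.37, 2.43, 2.83 and 2.1 in batch 1 (-0.92 ± 0.22). Idua (-0.72 ± 0.23) and Ppt1 (-0.52 ± 0.17) were also lower, and Asah1 (0.54 ± 0.15) and Scarb2 (0.47 ± 0.16) were higher, of which Ppt1 and Scarb2 were called in 5 of 12 fits with a culture left out, Idua in 7 and Asah1 in 10. In batch 3 over batch 2, Cd68 (1.08 ± 0.22), Idua (0.97 ± 0.27), Mcoln1 (0.93 ± 0.22), Gaa (0.86 ± 0.24), Tpp1 (0.72 ± 0.23), Naglu (0.70 ± 0.15) and Grn (0.56 ± 0.14) were higher, and Asah1 (-1.12 ± 0.15) and Lamp2 (-0.62 ± 0.17) lower. With one culture left out in turn, Tpp1 was called in 3 of 12 fits, at 0.39 to 0.92, and Lamp2 in 4 of 12, at -0.83 to -0.45. The share of total RNA reads outside any counted feature was 4.33% to 5.53% in batch 3, 14.2% to 19.2% in batch 2 and 8.46% to 10.7% in batch 1, and its part in the ratios was not tested.

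Related genes outside the 31 were taken from 4 lists. For genotype, 0 of their tested genes passed in total RNA, footprints or the ratio (64 tested in total RNA and 56 in footprints). Among 20 other hydrolases and activators, 13 passed in the total RNA of batch 3 over batch 1 (65% against 45.3% of all genes; 5 higher, 8 lower), with Pla2g15, a lysosomal phospholipase, at -1.29 ± 0.13 and Acp2, an acid phosphatase, at -0.80 ± 0.11. In batch 2 over batch 1, 11 passed (55% against 23.5% of all genes; 8 higher, 3 lower), among them Acp5 (tartrate-resistant acid phosphatase) at 2.51 ± 0.63, where WT4 had 75.7 CPM and KO2 to KO4 had 7.10 to 9.06 CPM. Among 15 other membrane proteins, 5 passed in batch 3 over batch 1 (33.3%, below the share of all genes), with Slc15a3, a peptide transporter, at -1.36 ± 0.14 and Laptm4b at 1.27 ± 0.24.

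In the list of 11 genes for mannose 6-phosphate tagging and sorting, 5 passed in the total RNA of batch 3 over batch 1 (45.5%, close to the 45.3% of all genes; 2 higher, 3 lower). Igf2r, the large mannose 6-phosphate receptor, was at -0.76 ± 0.11 in total RNA and -1.07 ± 0.16 in footprints, and Gga2, a sorting adaptor, at 0.84 ± 0.09 and 1.24 ± 0.24. In the list of MiT factors and lysosomal mTORC1 control, 18 of 21 genes were matched and 9 passed in that comparison (50%, near the same share; 5 higher, 4 lower). Mitf had 90.6, 83.3, 91.1 and 91.3 CPM of total RNA in batch 3 (KO5, KO6, WT5, WT6), against 194, 160.4, 176 and 142 CPM in batch 2 and 209, 227, 222 and 217 CPM in batch 1 (-1.31 ± 0.10 over batch 1, edgeR adjusted p = 5.69e-07). Tfe3 was at -0.53 ± 0.16 in batch 3 and 0.89 ± 0.17 in batch 2, both over batch 1, and Rragd, a subunit of the Rag GTPases, at 0.54 ± 0.10 and -1.01 ± 0.12.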

How the data were processed

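Footprint and total RNA libraries of 12 cultures were used as deposited: read counts per gene, made by the authors on mm10. The submitters' processing notes name Trim Galore, Bowtie 1.1.2, TopHat2 2.1.0, HTSeq and Cufflinks 2.2.1. The 5 HTSeq summary lines were kept out of library sizes; reads outside any feature were 4.33% to 19.2% of a total RNA file and 3.97% to 9.47% of a footprint file. A gene that a footprint file does not list was taken as 0. The authors' deposited table of p-values was used for the members only; the submitters' processing notes name DESeq2 and DESeq.

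Counts were fitted with edgeR 4.0.16 (R 4.3.3): TMM scaling and filterByExpr with a minimum count of 10 within each molecule, genotype plus batch, the quasi-likelihood test and Benjamini-Hochberg adjustment over all genes tested, threshold 0.05. The ratio is the interaction with molecule. CPM are counts per 1000000 counts in tested genes, TMM-scaled. SE is the log2 fold change over the square root of F. The fits were tested on simulated data. Alternatives were DESeq2 1.42.0, RLE scaling, no filter, no batch term, WT cultures only, blocks, shallow footprint libraries left out and each culture left out.

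Groups and batches come from the labels; some file names carry other culture numbers, and the labels were used. KO and WT cultures of the same number share only a number, while the labels give 1 footprint and 1 total RNA library to each culture, and their deviations from the group means correlated at 0.219 to 0.558. The members and lists were chosen with earlier results of these data known. The rule for naming genes picked the 3 with the smallest p by genotype and the 3 highest and lowest ratios. It also picked the 3 largest log2 fold changes in each direction among genes called between batches in total RNA or footprints. Values by genotype are mostly the lowest, median and highest, and values by batch are mostly given by culture. Lamp1 was added with its promoter, and the batch ratios of Cd68, Grn and Gaa were added outside this rule. From the lists, up to 3 of the largest called changes were eligible. Gene lengths were not used here, so levels were not ranked between genes per length. Floors cover counting error only, while the SE also carries the spread between cultures that the fit estimates.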

Additional observations from a re-analysis of the deposited data

Results flagged for a closer look

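Within a genotype, 14 values stood apart from the other cultures by a gap larger than Dixon's 95% limit, out of 186 groups of 6 cultures tested, and chance flags about 1 in 20 groups. In total RNA these were Ppt1 in WT4 (238 CPM, nearest other 152), Cln3 in WT4 (61 CPM, nearest 44.7), Arsb in WT6 (82.9 CPM, nearest 44.9) and Ids in WT5 (101 CPM, nearest 131). WT4 is the only wild-type culture of batch 2, and the KO cultures of that batch had 57.4 to 61.6 CPM of Cln3.

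In footprints the values were Psap in KO1 (21500 CPM, nearest 15200), Npc1 in WT4 (372 CPM, nearest 438), Scarb2 in WT6 (192 CPM, nearest 254), Neu1 in KO5 (252 CPM, nearest 119) and Arsb in WT5 (197 CPM, nearest 89). KO1 is the only KO culture of batch 1, where the WT cultures had 17990 to 20570 CPM of Psap.

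In the footprint to RNA ratio they were Lamp1 (1.25), Man2b1 (2.36, nearest 1.77) and Tpp1 (6.19, nearest 3.39) in WT5, Scarb2 in KO1 (0.964, nearest 1.47) and Neu1 in KO5 (1.3, nearest 0.66). The Neu1 value rests on 54 footprint counts.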

How the results depend on the processing

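In all 3 genotype comparisons 0 of 31 genes were called under DESeq2, RLE scaling, no filter, no batch term, each culture left out and the replicate block, which was by number in total RNA and in footprints and by culture in the ratio. The exception was footprints without cultures under 1000000 counts, where 6 were called. Without a batch term the KO over WT log2 fold change turned to -0.045 for Scarb2 in total RNA and to 0.035 for Asah1 in the ratio, neither of them called in any fit. With WT cultures only, batch 3 over batch 2 gave 13 genes in total RNA and 3 of 29 tested in the ratio, and in the ratio batch 2 over batch 1 gave 4 and batch 3 over batch 1 gave 0. With no filter the ratio gave 0 for batch 3 over batch 1 and 5 for batch 3 over batch 2. DESeq2 gave 2 for the ratio of batch 3 over batch 1. The share of all genes called in the ratio under these settings is not given here. These ratio counts are therefore not read as results about the 31 genes. The replicate block by culture, which pairs the libraries of a culture, gave 14 in the ratio of batch 2 over batch 1 and 2 in that of batch 3 over batch 1, with 13 in that of batch 3 over batch 2. Of the promoters, 3 and 1 held the longer motifs, against 9 with CACGTG, since each longer motif contains the shorter.

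With each culture left out in turn, total RNA gave 4 to 8 genes for batch 2 over batch 1, 14 to 20 for batch 3 over batch 1 and 14 to 21 for batch 3 over batch 2. Of all genes, 1345 to 3041, 4252 to 5279 and 4189 to 5401 were called in these 3 comparisons. Footprints gave 4 to 9, 10 to 14 and 7 to 13 in the same order, the ratio 3 to 9, 0 to 1 and 4 to 9, and footprints over total RNA 26 to 29. All genes called were 597 to 1193, 990 to 1591 and 974 to 1760 in footprints. In the ratio they were 412 to 1477, 18 to 88 and 298 to 762, and in footprints over total RNA 5004 to 5690. The cause of these changes was not tested. Batch 3 has no footprint library over 1000000 counts, so its contrasts have no value under that alternative. Depth limits footprints of batch 3 most: 3 counts are 82.2 CPM in WT6 and 32.6 CPM in KO6.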
